A study of Mus musculus with 18 samples.

Results

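Interferon receptor chains, a feedback inhibitor, a transcription factor and induced genes were followed in MC3T3-E1 cells, a preosteoblast line from mouse calvaria. The 10 genes were taken by symbol, 10 of the 40620 rows of a table of read counts, as the interferon-related genes of chromosomes 16 and 19: Ifnar1, Ifnar2, Ifngr2, Il10rb, Socs1, Batf2, Rtp4, Parp14, Parp9 and Dtx3l. All 10 rows were found and all 10 passed the filter on low counts. The series addressed silencing of Rcor2, a corepressor of the CoREST family, during osteogenic differentiation. The cells carried the hairpin construct shRcor2-18, the hairpin construct shRcor2-20 or the control construct shScramble. Each construct was titled 0h, 24h or 7d, with 2 samples per construct and time. Osteogenic medium supplied ascorbic acid (50 µg/ml), beta-glycerophosphate (5 mM) and the glucocorticoid dexamethasone (10 nM). The harvest note in the labels names no collection on the seventh day, so the times are those of the titles. Sample 1 of each construct at 0h was left out by the rule that chose the genes, which leaves 15 libraries: 3 at 0h, 6 at 24h and 6 at 7d. No label states whether the 2 samples were grown apart, so the p-values cover the spread among these libraries alone, and that spread may be technical.

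Interferons act on a cell through paired receptor chains on its surface. IFNAR1 and IFNAR2 together bind the type I interferons, IFNGR2 is the signalling chain for interferon gamma, and IL10RB is shared by the receptors for interleukin 10, interleukin 22 and the lambda interferons. The chains activate JAK kinases and through them transcription factors, which switch on genes through short promoter elements, the ISRE for type I and the GAS for interferon gamma. SOCS1 is made in response and blocks the kinases, which closes the loop. In the osteoblast lineage, type I interferon and interferon gamma are known as regulators of bone turnover, and glucocorticoids such as dexamethasone are known to dampen inflammatory signalling.

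The start of a gene shows which of these elements lie near it, and 5 of the 10 genes (Socs1, Dtx3l, Ifnar1, Ifnar2 and Ifngr2) had a promoter in the RefSeq table for GRCm38.p6. A window runs from 250 bases before the start of the gene to 50 bases after it and is given 5′ to 3′ on the strand of the gene, in lower case with motif matches in capitals. The ISRE core searched was GAAA, a spacer of 2 bases of any kind and GAAA again, and the GAS core was TTCNNNGAA, each on both strands. The following 3 windows are shown because Socs1 is the gene that passed the test with time, Ifnar1 is the most highly expressed receptor chain, and Dtx3l is an induced gene whose window held neither core. They lie at chr16:10785487-10785786 on the minus strand (Socs1), chr16:91484965-91485264 on the plus strand (Ifnar1) and chr16:35938978-35939277 on the minus strand (Dtx3l).
Socs1: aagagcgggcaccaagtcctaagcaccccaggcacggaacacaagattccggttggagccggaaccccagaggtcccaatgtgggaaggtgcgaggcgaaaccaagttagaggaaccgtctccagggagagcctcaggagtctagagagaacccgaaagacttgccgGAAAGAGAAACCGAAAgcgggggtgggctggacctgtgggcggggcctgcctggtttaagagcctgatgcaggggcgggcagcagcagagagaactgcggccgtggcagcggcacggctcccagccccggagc
Ifnar1: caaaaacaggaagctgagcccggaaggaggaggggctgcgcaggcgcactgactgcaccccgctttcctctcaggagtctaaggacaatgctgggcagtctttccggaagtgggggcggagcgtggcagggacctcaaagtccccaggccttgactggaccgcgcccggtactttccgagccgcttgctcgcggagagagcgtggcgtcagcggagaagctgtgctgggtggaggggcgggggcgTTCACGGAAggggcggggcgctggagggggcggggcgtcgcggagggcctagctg
Dtx3l: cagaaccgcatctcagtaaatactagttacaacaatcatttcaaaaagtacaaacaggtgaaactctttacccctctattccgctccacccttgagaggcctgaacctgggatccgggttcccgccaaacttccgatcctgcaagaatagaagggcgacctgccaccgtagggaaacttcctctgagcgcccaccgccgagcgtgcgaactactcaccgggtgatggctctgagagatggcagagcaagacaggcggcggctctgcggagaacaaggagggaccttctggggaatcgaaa
The Socs1 window held 2 overlapping ISRE cores, which began 83 and 77 bases before the start of the gene. An ISRE core occurred in 1131 of the 32851 promoters of the table (3.44%). The Ifnar1 window held a GAS core that began 5 bases before the start. The Ifnar2 window held a GAS core that began 214 bases before the start, and the Ifngr2 window held neither core. A GAS core occurred in 2726 promoters (8.3%). These matches describe letters in a window and do not show that a factor binds there.

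RNA was sequenced as 100 bp reads, and the total count of the 15 libraries ran between 3504808 and 6139315. Row names and reads correspond only over part of the genome in this table. On chromosome 16 they were in register over the first 611 of 646 coding rows, and on chromosome 19 over the first 138 of 699. All 10 genes lie inside these stretches, which hold 9 of them on chromosome 16 and Batf2 on chromosome 19. Batf2 lies 6 genes from the end of its stretch, and the 4 receptor genes lie 21 to 25 genes from the end of theirs. The Rcor2 row lies outside every such stretch and does not check the labels: it held 209 to 231 CPM with the hairpins at 24h, against 219 to 242 CPM with shScramble, and 201 to 220 CPM with the hairpins at 7d, against 202 to 223 CPM with shScramble (raw CPM, read counts scaled to the library total). The osteoblast genes Col1a1, Runx2 and Alpl lie outside the stretches too, so the labelled cell type could be checked only with 9 stromal genes, which summed to 8822 to 9554 CPM at 0h, 7911 to 8345 CPM at 24h and 6524 to 8582 CPM at 7d. At 7d against 0h, Lrrc15 (log2 change −2.41), Ccdc80 (−1.31), Efemp2 (−0.84) and Adamts5 (−1.36) fell and Lrp5 (1.62) rose past the threshold (edgeR). Of 11 lymphocyte, macrophage and dendritic genes in register, Cd86 and Cd200r1 were at 0, and the summed level was 162.7 to 208.5 CPM at 0h, 171.4 to 201.3 CPM at 24h and 208.9 to 296.4 CPM at 7d. Most of that sum was Cd80, which averaged 171 CPM at 0h, 175 CPM at 24h and 207 CPM at 7d and did not pass (adjusted p = 0.210 at 7d against 0h). Btla, a lymphocyte receptor, averaged 2.69 CPM at 0h, 7.74 CPM at 24h and 43.3 CPM at 7d and rose by 4.08 on the log2 scale at 7d against 0h (edgeR, adjusted p = 0.0155). Tigit (−1.27, edgeR, adjusted p = 0.278) and Ctsw (−1.43, adjusted p = 0.384) went the other way in that comparison and did not pass. Tigit averaged 3.09 CPM at 0h and 1.33 CPM at 7d, and Ctsw 1.69 and 0.59 CPM. The remaining in-register genes of this list did not pass the filter on low counts. The part of these marker changes in the time changes of the 10 genes was not tested. The endothelial gene Cldn5 was at 0. In bulk RNA, fewer cells that express a gene and less RNA per cell cannot be told apart.

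All 4 receptor chains were expressed at every time. Per kilobase of exon, over the 15 libraries, Ifnar1 had the highest level at 30.2 ± 2.31 CPM per kb (SD, n = 15). Below it came Ifngr2 at 24.1 ± 6.95, Parp9 at 20.5 ± 3.02, Ifnar2 at 17.5 ± 2.05 and Il10rb at 14.6 ± 2.89 CPM per kb. Dtx3l at 12.9 ± 2.39, Socs1 at 11.97 ± 2.64 and Rtp4 at 11.8 ± 6.74 CPM per kb were closer together than their own spread. Parp14 at 5.18 ± 1.56 and Batf2 at 2.50 ± 0.717 CPM per kb were the lowest. In this order the mean ± SD intervals of neighbouring genes overlapped, except those of Parp14 and Batf2. The row counts ran between 579 and 1130 for Ifnar1, 39 and 266 for Rtp4 and 12 and 46 for Batf2, so the level of Batf2 is the least precise.

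**Figure D1:**
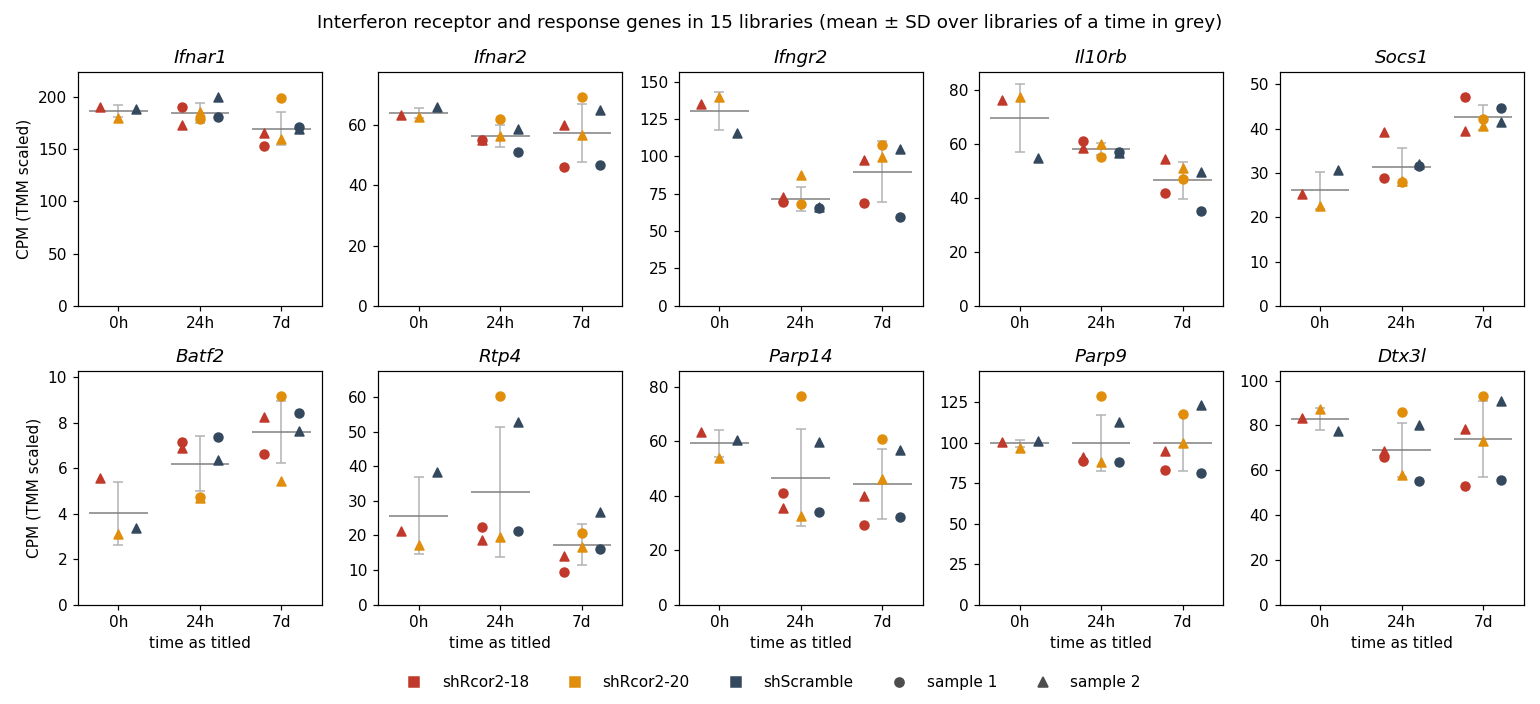
Each panel plots the TMM-scaled CPM (counts relative to the library total) of 1 gene in the 15 libraries by time, coloured by construct and shaped by sample number, with the mean and SD over the libraries of a time in grey. Socs1 was 39.4 to 47.2 CPM in all libraries at 7d, above the 22.4 to 30.7 CPM at 0h, while at 24h the libraries ran from 18.8 to 60.4 CPM for Rtp4 and from 32.7 to 76.8 CPM for Parp14.

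Socs1, the inhibitor of JAK kinases, was the single gene of the 10 that rose past the threshold with time. It had 25.2, 22.4 and 30.7 CPM at 0h (shRcor2-18, shRcor2-20 and shScramble), a lowest, median and highest value of 28.1, 30.2 and 39.2 CPM at 24h, and 39.4, 41.9 and 47.2 CPM at 7d. Every library at 7d lay above every library at 0h and at 24h. The level averaged 42.6 ± 2.86 CPM at 7d (SD, n = 6) and 26.1 ± 4.18 CPM at 0h (SD, n = 3), with a log2 change of 0.72 ± 0.15 (SE) or 1.64-fold (edgeR quasi-likelihood test, adjusted p = 0.0262). Among all 12930 rows tested, 5.76% passed this threshold at 7d against 0h, 3.27% higher and 2.49% lower, so 1 of 10 genes is near the background. Libraries of the times did not overlap for 3 of the 10 genes at 7d against 0h, 1 above and 2 below, beside 14.9% of all rows (7.14% above and 7.78% below). DESeq2 called 2 of the 10 at 7d against 0h, Socs1 and Il10rb, beside 10.9% of rows.

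The change of Socs1 between 24h and 7d was 0.45 ± 0.11 on the log2 scale and missed the threshold (adjusted p = 0.0843). Socs1 was higher at 7d in 6 of 6 pairs of libraries with the same construct and sample number. This count follows from the libraries of these times not overlapping and adds no evidence. Fitted on the 622 in-register genes alone, that change passed (adjusted p = 0.0321), where 17.7% of genes did. The change at 24h against 0h was 0.27 ± 0.14 (adjusted p = 0.540), and with all 18 libraries it turned to −0.59 ± 0.33 (adjusted p = 0.312).

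The rise of Socs1 at 7d against 0h rests on few libraries. With sample number within construct as a replicate block, in a fit with 3 residual degrees of freedom, the log2 change was 0.72 ± 0.18 with an adjusted p of 0.120, and 3.34% of rows passed. The call was lost also with the number shared by the constructs as the block (adjusted p = 0.0505) and with no filter on low counts (adjusted p = 0.0720). Leaving out 1 library at a time gave 0.64 to 0.83, with adjusted p between 0.0213 and 0.102. The call was lost without shRcor2-18, shRcor2-20 or shScramble sample 2 at 0h, without sample 1 of any of the 3 constructs at 7d, or without shRcor2-20 sample 2 at 7d. The 3 libraries left out at 0h had 53.9 to 79.0 CPM of Socs1, above every library used. With all 18 libraries the direction turned, to −0.12 ± 0.33 (adjusted p = 0.838), and 6.98% of rows passed. These left-out libraries had fewer rows with a count, 11942 to 14355 against 16555 to 18277 in the others. They also held higher levels of Ifnar1 (303 to 377 CPM), Ifngr2 (164 to 251 CPM) and Il10rb (84.4 to 100.5 CPM) than any of the 15 libraries used. The same held for Parp9 (148 to 244 CPM) and Dtx3l (120 to 209 CPM).

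Ifngr2, the signalling chain of the interferon gamma receptor, was lower after the start of differentiation. It had 135, 140 and 116 CPM at 0h (shRcor2-18, shRcor2-20 and shScramble). At 24h its lowest, median and highest values were 65.6, 68.8 and 87.5 CPM, and at 7d they were 59.7, 98.9 and 107 CPM. All 12 later libraries lay below all 3 libraries at 0h. The means were 71.6 ± 8.15 CPM at 24h (SD, n = 6) and 130.2 ± 12.8 CPM at 0h (SD, n = 3), so that the log2 change was −0.86 ± 0.19 (edgeR quasi-likelihood test, adjusted p = 0.0757). In that comparison 0 of the 10 genes passed, beside 1.86% of all rows, 1 had an unadjusted p under 0.05, beside 11.5% of rows, and DESeq2 called 1, beside 4.47% of rows. Fitted on in-register genes alone, Ifngr2 passed at 24h against 0h with −0.85 ± 0.17 (adjusted p = 0.0133), where 5.63% of the genes passed. It passed also with all 18 libraries, at −1.23 (adjusted p = 0.0205), where 1.56% of rows did. That fit adds the 3 left-out libraries at 0h, which had 164 to 251 CPM of Ifngr2, above every library used.

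At 7d against 0h, Ifngr2 changed by −0.54 ± 0.19 (adjusted p = 0.156 over all rows and 0.0346 over in-register genes, 27.3% of which passed). With sample number within construct as a replicate block over all rows, neither change passed (edgeR). It was −0.72 ± 0.19 at 24h (adjusted p = 0.277) and −0.42 ± 0.19 at 7d (adjusted p = 0.341). Leaving out 1 library at a time gave −0.924 to −0.805 at 24h and −0.695 to −0.423 at 7d. At 7d against 24h Ifngr2 changed by 0.32 ± 0.16 (adjusted p = 0.344). The 6 libraries at 7d differed among themselves: shScramble sample 1 at 59.7 CPM and shRcor2-18 sample 1 at 68.7 CPM stood apart from the other 4, which had 97.9 to 107 CPM.

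Il10rb, the chain shared with interleukin 10 receptors, was lowest at 7d. It had 76.1, 77.4 and 54.8 CPM at 0h (shRcor2-18, shRcor2-20 and shScramble), a lowest, median and highest value of 55.1, 57.7 and 61.2 CPM at 24h, and 35.2, 48.3 and 54.3 CPM at 7d. The libraries at 7d lay below all others, by a margin under 1 CPM. The mean was 46.5 ± 6.95 CPM at 7d (n = 6) and 69.5 ± 12.7 CPM at 0h (n = 3), so the log2 change was −0.56 ± 0.14 (edgeR, adjusted p = 0.0570). On in-register genes alone this change passed (adjusted p = 0.0115), where 27.3% of the genes did. As these libraries did not overlap, Il10rb was necessarily lower at 7d than at 24h in 6 of 6 pairs with the same construct and number. The log2 change was −0.32 ± 0.12. That change had an adjusted p of 0.198 over all rows and of 0.0586 on in-register genes, where 17.7% of genes passed (edgeR). On in-register genes with the replicate block, a fit added after the data were seen, the adjusted p was 0.0365, where 30.4% of genes passed. A further gene, Gm21970, shares 569 exonic bases with Il10rb and 315 with Ifnar2 on the same strand. It had 13.9 ± 4.61 CPM at 0h, 11.3 ± 1.36 at 24h and 9.89 ± 1.72 at 7d, and its part in the values of Il10rb was not tested.

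The receptor for type I interferon varied less. Ifnar1 averaged 186.5 ± 5.89 CPM at 0h (n = 3), 185 ± 9.48 CPM at 24h and 169.7 ± 15.6 CPM at 7d (n = 6 each). Its log2 change was −0.01 ± 0.09 at 24h against 0h and −0.14 ± 0.09 at 7d against 0h, with adjusted p of 1 and 0.472 (edgeR). Ifnar2 averaged 64.1 ± 1.71 CPM at 0h, 56.5 ± 3.70 CPM at 24h and 57.4 ± 9.51 CPM at 7d. The 24h libraries, at 51.2 to 62.1 CPM, all lay below the 0h libraries, at 62.9 to 66.1 CPM, but the fitted change was −0.18 ± 0.15 (adjusted p = 0.747). Ifngr2 and Ifnar2 were the 2 genes whose libraries did not overlap between 24h and 0h, both lower at 24h, beside 7.77% of all rows (4.09% higher and 3.68% lower).

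Batf2, a basic leucine zipper factor that pairs with IRF1 in macrophages, was rare. It had 5.58, 3.09 and 3.35 CPM at 0h (shRcor2-18, shRcor2-20 and shScramble), a lowest, median and highest value of 4.67, 6.61 and 7.36 CPM at 24h, and 5.44, 7.92 and 9.17 CPM at 7d. Libraries of 7d and 0h overlapped, since shRcor2-18 at 0h exceeded shRcor2-20 sample 2 at 7d. The log2 change was 0.96 ± 0.29 at 7d against 0h (adjusted p = 0.102 over all rows and 0.0241 over in-register genes, 27.3% of which passed). At 24h against 0h it was 0.65 ± 0.29 (adjusted p = 0.441). Batf2 shares 51 exonic bases with Arl2 on the other strand, and the treatment of strand in the counting is not given. Arl2 averaged 223.3 CPM at 0h, 197 CPM at 24h and 183.4 CPM at 7d, the opposite order to that of Batf2. The part of Arl2 in the values of Batf2 was not tested.

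**Figure D2:**
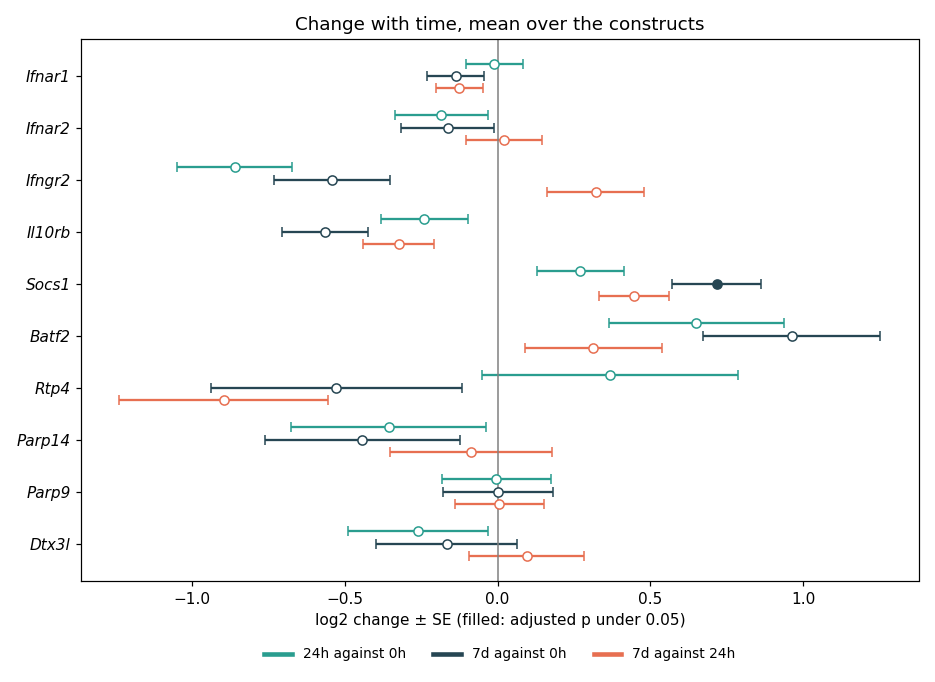
Points show the log2 change of each gene between times, averaged over the constructs, with its SE from the edgeR fit on all rows, and filled points have an adjusted p under 0.05. The single filled point is Socs1 at 7d against 0h (0.72 ± 0.15), and the lowest values at 24h against 0h and at 7d against 24h belong to Ifngr2 (−0.86) and Rtp4 (−0.90).

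Rtp4, Parp14, Parp9 and Dtx3l are induced by interferon in many cell types. Among the 10 genes, Rtp4 and Parp14 had the largest coefficients of variation (SD relative to the mean) at 24h and at 7d. Those of Parp9 (17.4% at both times) and Dtx3l (17.5% and 23.2%) were near those of Batf2 (19.5% and 17.9%). RTP4 is a chaperone of receptor transport that also binds viral RNA. PARP9 and DTX3L form a complex of an ADP-ribosyltransferase family member and a ubiquitin ligase, encoded side by side, and PARP14 is a further ADP-ribosyltransferase, encoded next to Dtx3l. At 24h, Rtp4 had 22.5 and 18.8 CPM with shRcor2-18 (samples 1 and 2), 60.4 and 19.6 CPM with shRcor2-20, and 21.4 and 52.7 CPM with shScramble. Thus shRcor2-20 sample 1 and shScramble sample 2 stood above the other 4 libraries, which lay between 18.8 and 22.5 CPM. At 7d the values were 9.53 and 14.0 CPM with shRcor2-18, 20.6 and 16.8 CPM with shRcor2-20, and 16.04 and 26.9 CPM with shScramble. The same construct and number were highest again, with a smaller gap.

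Parp14 had the same 2 libraries on top. At 24h it had 41.2 and 35.6 CPM with shRcor2-18, 76.8 and 32.7 CPM with shRcor2-20, and 34.2 and 59.8 CPM with shScramble. At 7d it had 29.3 and 39.8 CPM with shRcor2-18, 61.0 and 46.3 CPM with shRcor2-20, and 32.1 and 56.8 CPM with shScramble. Its coefficient of variation was 8.24% over the 3 libraries at 0h, 38.1% over the 6 at 24h and 29.2% over the 6 at 7d. The 3 libraries at 0h were all sample 2. The left-out sample 1 libraries at 0h, scaled with all 18 libraries, had 74.7 (shScramble), 94.1 (shRcor2-18) and 161 CPM (shRcor2-20) of Parp14. Parp9 at 24h had 129 CPM in shRcor2-20 sample 1 and 113 CPM in shScramble sample 2, and 88.0 to 90.9 CPM in the other 4. Dtx3l at 24h had 86.0 CPM and 80.0 CPM in these libraries, and 55.2 to 68.6 CPM in the other 4.

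In all, shRcor2-20 sample 1 and shScramble sample 2 were the 2 highest libraries at both 24h and 7d for 5 of the 10 genes: Rtp4, Parp14, Parp9, Dtx3l and Ifnar2. The pair was picked from the values of these same genes, so the counts and shares below are a description and not a test. Parp9 and Dtx3l also share exonic bases and are not independent. Over all 12930 rows tested the share with that pair on top at both times was 2.08%, and over 623 in-register coding genes 8.35%. The pair was on top for 5 genes at 24h and for 6 at 7d. The share of in-register genes with it on top was 15.1% at 24h and 25.8% at 7d, and that of all rows 8.48% and 10.7%. Socs1, Il10rb, Batf2 and Ifnar1 did not have this pair on top at either time. The likeness of these libraries was not limited to interferon genes. Over the other in-register genes, each of the 2 libraries had the other as its nearest at 24h and 7d (r = 0.986 and 0.983 of log2 CPM, a description across genes), although they carry different constructs. Nor was this particular to that pair. At both times shScramble sample 1 was nearest to shRcor2-18 sample 1 (r = 0.993 at 24h and 0.986 at 7d) and shRcor2-18 sample 2 to shRcor2-20 sample 2 (r = 0.992 and 0.987). All 6 libraries of a time were thus closest to a library of another construct, and the part of this in the comparisons of constructs was not tested. Socs1 at 24h was highest in shRcor2-18 sample 2, at 39.2 CPM, and the pair had 28.1 and 32.1 CPM.

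**Figure D3:**
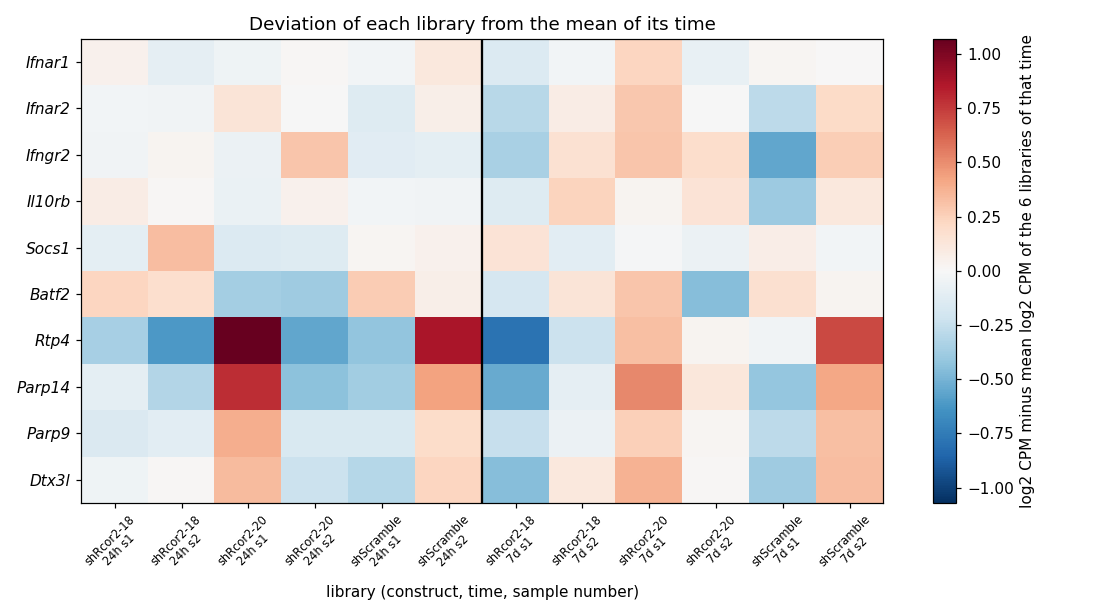
Colours give, for each gene (rows) in each 24h and 7d library (columns), the log2 CPM minus the mean log2 CPM of the 6 libraries of that time. The columns of shRcor2-20 sample 1 and shScramble sample 2 are red for Rtp4, Parp14, Parp9 and Dtx3l at both times, up to 1.07 for Rtp4 at 24h, while the row of Socs1 is not.

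Averaged over constructs, none of these 4 genes passed the test with time over all rows. Rtp4 was 17.3 ± 5.94 CPM at 7d and 32.6 ± 18.8 CPM at 24h (n = 6 each), a log2 change of −0.90 ± 0.34 (edgeR, adjusted p = 0.219), and −1.09 to −0.55 with 1 library left out. It was lower at 7d in 6 of 6 pairs with the same construct and number. No label states these pairs, and the share of all rows with 6 of 6 was not computed. On in-register genes alone the change was −0.91 ± 0.31 and did not pass (edgeR, adjusted p = 0.0694), where 17.7% of genes did. With sample number within construct as a replicate block, on in-register genes, it was −0.83 ± 0.20 and passed (adjusted p = 0.00927), where 30.4% of genes did. That fit was added after the data were seen and has 3 residual degrees of freedom. The same block over all rows did not bring Rtp4 past the threshold. Masp1, a complement protease gene on the other strand, overlaps Rtp4 without shared exonic bases. It had 322.6 ± 34.5 CPM at 0h (n = 3), 406.5 ± 73.4 CPM at 24h and 242.3 ± 33.9 CPM at 7d (n = 6 each), so its order with time was that of Rtp4, and its part in the values of Rtp4 was not tested. Its highest libraries were others, shRcor2-18 sample 1 at 24h with 500 CPM and at 7d with 284 CPM.

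Parp9 had a mean of 99.6 CPM at 0h, 99.6 CPM at 24h and 100 CPM at 7d, with log2 changes between −0.00 and 0.01. Parp14 changed by −0.36 ± 0.32 at 24h against 0h and −0.44 ± 0.32 at 7d against 0h (adjusted p = 0.781 and 0.502). Dtx3l changed by −0.26 ± 0.23 and −0.17 ± 0.23 in these comparisons (adjusted p = 0.772 and 0.773). Parp9 and Dtx3l lie on opposite strands and share 458 exonic bases, so a read there cannot be assigned without strand. An antisense gene, Gm15564, overlaps Parp9 on the other strand without shared exonic bases. It had 58.8 ± 7.77 CPM at 0h, 88.3 ± 18.2 CPM at 24h and 252.1 ± 120.7 CPM at 7d. Its part in the values of Parp9 was not tested. At 7d against 24h, 0 of the 10 genes passed over all rows, beside 2.34% of rows, 3 had an unadjusted p under 0.05, beside 17.85% of rows, and DESeq2 called 1 beside 8.32% of rows, which was Socs1 (adjusted p = 0.0234). The libraries of the 2 times did not overlap for Socs1, higher at 7d, and Il10rb, lower at 7d, beside 5.01% of rows (2.59% higher and 2.42% lower).

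On in-register genes with the replicate block, 1 of the 10 genes passed at 24h against 0h (Ifngr2), beside 9.81% of genes. In that fit 4 of the 10 passed at 7d against 0h (Ifngr2, Il10rb, Socs1 and Batf2), beside 32.5%, and 3 at 7d against 24h (Il10rb, Rtp4 and Socs1), beside 30.4%. Without the block, 4 of 10 at 7d against 0h compared with 27.3%. Over the 10 genes the median log2 change was −0.10 at 24h against 0h, −0.165 at 7d against 0h and 0.01 at 7d against 24h. Over all rows tested these medians were 0.06, 0.07 and −0.02. At 24h against 0h 3 of the 10 values were positive and 7 negative, and at 7d against 0h likewise.

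The in-register genes with the pattern most like that of Rtp4, by Pearson correlation of log2 CPM over the 15 libraries among 613 genes, were Cyp51 (r = 0.816), 2010005H15Rik (r = 0.815) and Slc25a1 (r = 0.791). Cyp51 is a sterol synthesis enzyme and Slc25a1 the mitochondrial citrate carrier. The row of 2010005H15Rik averaged 0.753 CPM, too few counts for its r to be read. For the mean of Parp14, Parp9 and Dtx3l the closest were Rabl3 (0.865), Pdxdc1 (0.829) and Cggbp1 (0.825). The libraries share time and construct, so these r values are a description.

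Neither hairpin changed any of the 10 genes past the threshold. The comparison of both hairpins with shScramble over 24h and 7d gave 0 of 10, beside 0.0464% of all rows (6 of 12930), and 0 genes had an unadjusted p under 0.05 with edgeR, beside 3.44% of rows, while DESeq2 also called 0 of them, beside 0.162% of rows. At 0h, where each construct had 1 library, 0 of 10 passed beside 0.155% of rows, at 24h 0 beside 0.0155% and at 7d 0 beside 0.0387%. The median size of the log2 difference over 24h and 7d was 0.05 for the 10 genes, with a median SE of 0.16, and 0.20 for all rows. The 10 genes are in register and most of all rows are not, so these sizes do not compare like with like. Among the 622 in-register genes fitted alone, 0 passed in that comparison and 1.77% had an unadjusted p under 0.05 (edgeR). A p that misses the threshold does not show that the constructs act alike.

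Over 24h and 7d, Rtp4 had the largest difference of both hairpins from shScramble among the 10 genes, at −0.45 ± 0.35 on the log2 scale (edgeR, adjusted p = 1). Leaving out 1 library at a time gave −0.71 to −0.06, the nearest to 0 without shScramble sample 2 at 24h. For shRcor2-18 alone it was −0.85 ± 0.42 (adjusted p = 1), with mean levels of 16.2 CPM for shRcor2-18 and 29.3 CPM for shScramble, and −1.11 to −0.47 with 1 library left out. Of all rows, 0.0619% passed for shRcor2-18. For shRcor2-20 alone it was −0.045 ± 0.41. The 52.7 CPM of shScramble sample 2 at 24h entered this mean, and shScramble sample 1, at 21.4 CPM, lay within the range of shRcor2-18. At 0h the single shRcor2-18, shRcor2-20 and shScramble libraries had 21.4, 17.3 and 38.3 CPM.

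Ifngr2 was 0.29 ± 0.19 higher on the log2 scale with shRcor2-20 than with shScramble over 24h and 7d (edgeR, adjusted p = 1). Il10rb at 0h was 76.1 and 77.4 CPM with the hairpins, against 54.8 CPM with shScramble, a log2 difference of 0.48 ± 0.25 (edgeR, adjusted p = 0.716). For Socs1 the difference was −0.04 ± 0.17 at 24h and −0.03 ± 0.17 at 7d. The change at 7d against 24h did not differ between the hairpins and shScramble past the threshold in any of the 10 genes (0 of 10, beside 0.0541% of rows, lowest unadjusted p = 0.579).

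**Figure D4:**
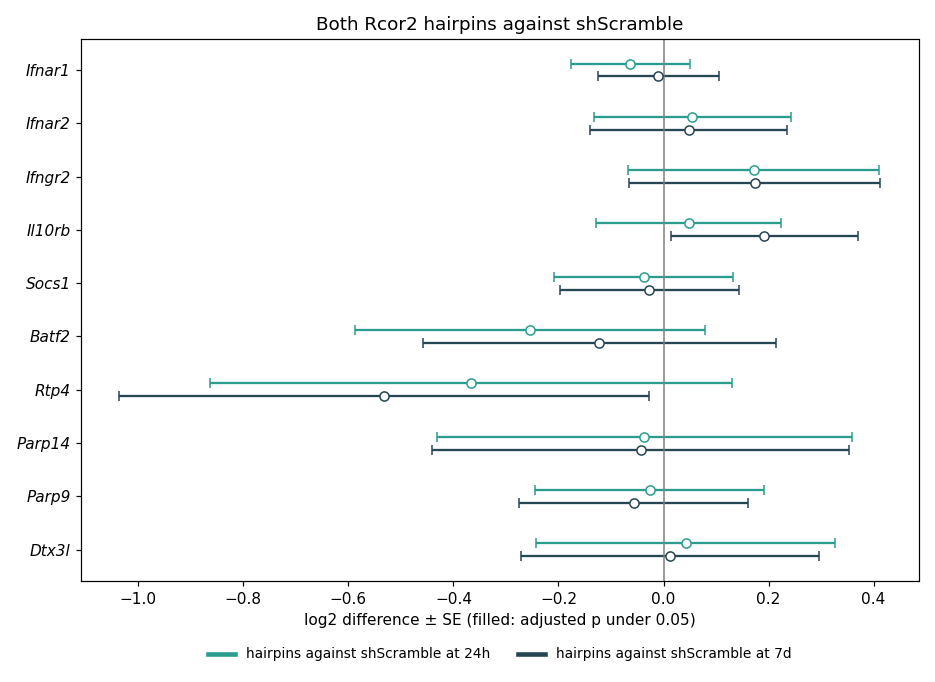
Points show the log2 difference of both hairpins from shScramble at 24h and at 7d for each gene, with its SE from the edgeR fit on all rows. No point is filled (adjusted p under 0.05), and Rtp4 has the widest intervals (−0.37 ± 0.50 at 24h and −0.53 ± 0.50 at 7d).

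Other genes of interferon and innate immune signalling were read from a list of 85 entries, of which 24 lie in register and 14 are not among the 10 genes. Only 10 of these 14 passed the filter on low counts: the coactivator Crebbp, the NF-kB subunit Rela, the repressor Bcl6, the NF-kB regulator Nfkbiz, the inhibitor Nlrc3, Rnaseh2c, Banf1, Prkdc, Peli3 and Litaf. At 24h against 0h, 0 rose and 0 fell. At 7d against 0h, 0 rose and 1 fell, beside 3.27% of rows called higher and 2.49% called lower. The gene was Nfkbiz, with a log2 change of −0.90 (edgeR, adjusted p = 0.0235) and mean levels of 31.0 CPM at 0h, 22.1 CPM at 24h and 16.3 CPM at 7d. At 7d against 24h and for the hairpins against shScramble, 0 rose and 0 fell. Their median log2 change was −0.26 at 24h against 0h, −0.33 at 7d against 0h and −0.09 at 7d against 24h. The induced genes Isg15, Ifit1 and Mx1 lie outside the stretches and could not be read.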

How the data were processed

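For 18 libraries the authors deposited raw counts of reads per gene in 1 table, with 40620 rows and totals of 2572026 to 9798498. Reads were aligned with TopHat2 2.0.9 to mm9 after FastQC, per the submitters' processing notes, where DESeq and DESeq2 are listed too. Which program counted the reads, with which annotation and with what use of strand, is not given in the sources used here, and 680 rows carry no symbol. Groups were taken from the sample titles. The genes, the gene lists and the tests were chosen with earlier results of these data known.

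All rows were fitted together with edgeR 4.0.16 in R 4.3.3 (filterByExpr, TMM, robust glmQLFit and glmQLFTest, 9 group means, 15 libraries, 6 residual degrees of freedom), with Benjamini-Hochberg adjustment over 12930 rows and a threshold of 0.05. A lone library of a construct at 0h was assumed to vary like the other groups. CPM of the 10 genes and of genes that overlap them are TMM-scaled. Those of Rcor2, the marker genes, the listed pathway genes and 2010005H15Rik are raw. Time comparisons averaged the constructs. A row was taken as in register where an ordered search along each chromosome of GENCODE vM21, at a detection level of 20 CPM, placed its name with its reads (929 coding rows on 7 chromosomes, 18.6% of counts). Of 29 members of always-expressed gene families held out of that search, 28 were detected in register, against 91 of 489 outside. Named genes were all 10 genes, Masp1 and other genes that overlap them, listed pathway genes that passed in a time comparison, and the 3 genes most like each of 2 patterns.

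Same-numbered libraries of a construct at 24h and 7d deviated together among in-register genes (correlations 0.50, 0.50 and 0.45 over 528 genes) and hardly over all rows (0.03 to 0.06). Likeness by number also crossed constructs in these 528 genes. For shRcor2-18 with shScramble the correlation was 0.57 at 24h and 0.36 at 7d, and with shRcor2-20 it was 0.47 and 0.21. For shRcor2-20 with shScramble it was −0.18 and −0.14. These values thus do not single out pairs within a construct. The labels state no pairing. The numbers were treated as pairing samples in the replicate blocks, over all rows and on in-register genes, and in the counts of same-numbered pairs. On simulated counts for 7d against 24h (12375 genes), the test called 20% of genes raised and 22% of genes lowered by 1 on the log2 scale, and 0 unchanged genes. Python 3.11.15 and pandas 2.3.3 were used for tables. Alternatives were other scalings, no filter, DESeq2 1.42.0, in-register genes alone, all 18 libraries, replicate blocks and leaving out each library. In-register genes with the block were added after the data were seen.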

Additional observations from a re-analysis of the deposited data

Results flagged for a closer look

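Among 20 sets of 6 libraries screened (10 genes at 24h and at 7d), 2 held a library far from the other 5 relative to their range. Chance gives about 1 in 20. At 24h, Ifngr2 had 87.5 CPM in shRcor2-20 sample 2 and 65.6 to 72.5 CPM in the other 5 libraries. At 24h, Socs1 had 39.2 CPM in shRcor2-18 sample 2 and 28.1 to 32.1 CPM in the other 5 libraries. Neither library was among the 2 highest for Rtp4 or Parp14 at that time.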

How the results depend on the processing

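At 24h against 0h, where 0 of the 10 genes passed over all rows, 1 passed with no filter on low counts (beside 0.903% of rows), with DESeq2 (4.47%), on in-register genes (5.63%), with all 18 libraries (1.56%) and on in-register genes with the replicate block (9.81%). Leaving out 1 library gave 0 to 1 (beside 0.979% to 1.80% of rows), with 1 without shScramble sample 1 or sample 2 at 7d. At 7d against 0h, where 1 passed, 2 passed with scaling by library size alone (6.16%), with DESeq2 (10.9%) and with all 18 libraries (6.98%). On in-register genes 4 passed without (27.3%) or with (32.5%) the replicate block, and 0 passed with no filter (2.51%) or with a replicate block over all rows (3.34% within construct, 4.88% shared by constructs). Leaving out 1 library gave 0 to 3 (2.41% to 5.93%), with 3 without shScramble sample 2 at 7d. At 7d against 24h, where 0 passed, 1 passed with DESeq2 (8.32%) and on in-register genes (17.7%), and 3 on in-register genes with the replicate block (30.4%). Leaving out 1 library gave 0 to 0 (0.931% to 2.39%).

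With all 18 libraries Socs1 turned to −0.125 at 7d against 0h and to −0.59 at 24h against 0h. Over 24 alternatives the log2 change of Ifngr2 at 24h against 0h was −1.23 to −0.72, and that of Il10rb at 7d against 0h −0.81 to −0.48, with no change of direction. For the hairpins against shScramble, 0 of 10 genes passed under every alternative run. Without shScramble sample 2, no comparison at 0h was possible. Over all rows the replicate block removed the call of Socs1 and changed no other call among the 10 genes, and on in-register genes it added Il10rb and Rtp4 at 7d against 24h. The causes were not tested. With 12 to 46 counts, Batf2 is limited by depth.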
